A study of Rattus norvegicus with 10 samples.

Results

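Splicing factor transcripts were followed in the supraoptic nucleus of the rat: the genes whose symbol in the authors' deposited table begins with Hnrnp, Srsf or Snrp. The rule found 44 of 32402 listed genes, made up of 19 hnRNP genes, 12 SR protein genes and 13 snRNP protein genes. Of the last, Snrpd2l is a pseudogene in RefSeq. The rule used no measured value, but it was chosen with earlier results of these data known. The supraoptic nucleus is a hypothalamic nucleus whose large neurones make vasopressin and oxytocin and release them into the blood. Polyadenylated RNA was sequenced from 10 samples of Wistar Han rats, 5 from cages with free access to drinking water (euhydrated) and 5 from cages whose water had been removed for 72 h (dehydrated). The labels used here give neither sex nor age. The nucleus was punched on both sides from frozen brain slices, so each sample held neurones, glia and vessels together. The labels do not say that each sample was 1 animal, so a p-value here weighs a difference only against the scatter of these samples, part of which may be technical. A value after ± is the SD over the 5 libraries of a group unless it is named as an SE.

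Splicing removes introns from nascent RNA. Small nuclear ribonucleoproteins (snRNPs) recognise the splice sites and form the spliceosome, and most of them carry a ring of Sm proteins encoded by Snrp genes. SR proteins, which hold a domain rich in arginine and serine, bind exons and usually favour their inclusion, while hnRNP proteins coat nascent transcripts and often favour skipping. The ratio between these classes is known to influence alternative splicing, and several members control their own transcript level through exons that lead to decay of the RNA. Gene counts do not resolve such isoforms, so the values below concern the total RNA of each gene.

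The promoter windows of Srsf12, the member that passed the test, and of Srsf10, its close relative, are shown because the members shared one sequence feature that the rule had not used: most of their windows are rich in CpG. They come from RefSeq on the assembly GRCr8, run 5′ to 3′ over the 250 bases before the annotated start on the plus strand, and have CpG in capitals. The files' own genome build is not given in the sources used here. The Srsf12 window lies at chr5:52402761-52403010, inside the span of the gene's RefSeq record, whose first base is further upstream. The Srsf10 window lies at chr5:153372066-153372315 and is the richer in CpG of 2 windows listed for that gene.
Srsf12: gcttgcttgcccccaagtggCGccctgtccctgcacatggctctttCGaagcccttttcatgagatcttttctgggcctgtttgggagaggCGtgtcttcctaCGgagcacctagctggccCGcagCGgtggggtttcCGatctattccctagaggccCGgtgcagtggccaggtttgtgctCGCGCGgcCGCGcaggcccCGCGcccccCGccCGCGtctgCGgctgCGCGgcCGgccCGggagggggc
Srsf10: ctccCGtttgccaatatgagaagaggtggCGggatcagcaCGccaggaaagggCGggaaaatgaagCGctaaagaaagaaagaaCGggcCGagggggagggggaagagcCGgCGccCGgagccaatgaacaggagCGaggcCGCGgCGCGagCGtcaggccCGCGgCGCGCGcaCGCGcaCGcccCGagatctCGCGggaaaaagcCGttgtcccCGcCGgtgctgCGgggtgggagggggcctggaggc
These 250 bases hold 23 CpG in Srsf12 and 31 in Srsf10, and 68.8% of the bases are G or C in both.

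Of the 44 members 42 had a window in the RefSeq table, with 46 windows in all (300 bases, from 250 before to 50 after the start). The median was 25.5 CpG per window among the members and 7 among all 33469 windows, and 38 of 46 windows (82.6%) held at least 15 CpG against 32.0% of all windows. All windows means those of 27457 genes, whether or not the gene was detected here. Windows of expressed genes alone were not compared, so none of the shares below is shown to be particular to the members. The ETS motif CCGGAAG was found on either strand in 13 windows (28.3%) against 8.75% of all. Among windows with at least 15 CpG it was found in 12 of 38 (31.6%) against 19.0%. The windows with the ETS motif were those of Hnrnpd, Hnrnpf (all 3 windows), Snrpb, Snrpb2, Snrpd1, Snrpe, Snrpg, Srsf4, Srsf5, Srsf7 and Srsf11. The cAMP response element TGACGTCA was found in 1 window, that of Snrpg (1.83% of all windows), and the AP-1 motif TGANTCA in 2, Hnrnpa1 and Srsf8 (7.33% of all). The ATF4 motif TGATGNAA (3.98% of all) and the palindromic glucocorticoid response motif (0.0149% of all) were found in none. The TATA motif TATAAA was found in 8 windows (17.4%, against 14.2% of all), and among windows with at least 15 CpG in 7 of 38 (18.4% against 4.11%). The E-box CACGTG was found in 6 windows (13.0%, against 6.42% of all), all with at least 15 CpG (15.8% against 10.9%), and the palindromic NRF1 motif in 1, that of Snrpb2 (0.852% of all). All motifs were searched on both strands and may overlap one another, and a match describes the letters, not a bound site. Neither the Srsf12 window nor the CpG-rich Srsf10 window held any of these motifs.

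Depth was even across the study. Between 24268398 and 28491926 reads per library had been assigned to a gene, and 15311 genes passed the filter on low counts and were tested. The supraoptic tissue was checked with 6 transcripts of its large neurones (Avp, Oxt, Scg2, Vgf, Pdyn and Caprin2), whose summed level was 8363 to 11722.5 CPM (counts per 1000000, TMM-scaled) under euhydration and 12563.5 to 16682 CPM under dehydration. Over all genes 1192 rose and 750 fell in dehydrated samples (edgeR quasi-likelihood test, Benjamini-Hochberg adjusted p under 0.05). Scaled to library totals instead, the split was 904 and 1173. In the marker lists of astrocytes, microglia, endothelium, mural cells, fibroblasts, ependyma and the optic tract 0 genes passed in edgeR in either direction. At an unadjusted edgeR p under 0.05 there were 10, 6 of them among the 9 microglial markers. Of those 9 markers 7 had a value below 0 and 2 above, with a median log2 fold change of -0.10. Only 2 of 5 ependymal markers were tested. Of 5 markers of oligodendrocyte precursors 1 rose (Cspg4).

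Of the 44 splicing factor genes 41 were tested, and 1 rose, 0 fell and 40 did not pass the threshold. Among all genes tested 12.7% passed, 7.79% higher and 4.9% lower. Of genes with a mean of at least 10 CPM 16.4% passed. No other member reached an unadjusted p under 0.05, against 26.4% of all genes. Scaled to library totals, Hnrnpl, Hnrnpul1 and Snrpb2 did so besides Srsf12, and the median log2 fold change went from -0.015 to -0.042 among the members and from -0.0058 to -0.033 among all genes. The count past the adjusted threshold was still 1 higher and 0 lower. DESeq2 and limma-voom each also put 1 member higher and 0 lower, and the authors' deposited table has the same single member past 0.05 among 41 with an adjusted p. In no member were the 5 dehydrated libraries all above or all below the 5 euhydrated ones, which held for 10.9% of all genes tested. In bulk tissue, fewer cells of a type and less RNA per cell cannot be told apart, and the same holds for opposite changes in different cell types that cancel in the sum.

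**Figure D1:**
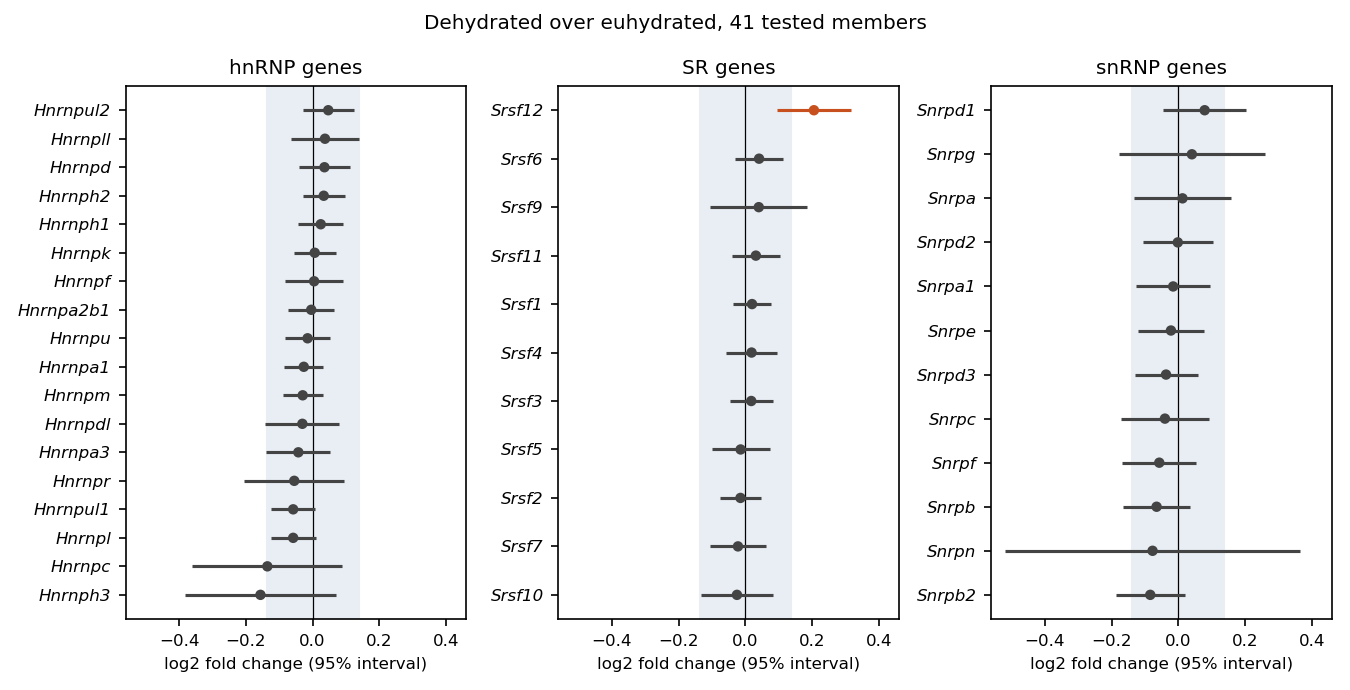
Log2 fold change of each tested member, dehydrated over euhydrated (point), with its 95% interval (line), in 3 panels for hnRNP, SR and snRNP genes; the shaded band marks 1.1-fold either way and orange marks the member past the threshold. Srsf12 alone is orange, and the intervals of 25 of 41 members lie inside the band.

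The measured changes were small, and the intervals bound them closely. The median absolute log2 fold change was 0.03 among the members, which is 1.02-fold, and 0.09 among all genes tested. Members are counted by many reads, so genes with a mean of at least 10 CPM are a closer reference: their median was 0.07, against 0.03 for the 38 members at that level. This reference is still not matched for depth, with a median level of 40.8 CPM against 92.1 CPM in those members. How much of the differences below goes with depth was not tested. The 95% interval of the fold change lay wholly within 1.1-fold either way for 25 of 41 members (61.0%), against 16.9% of all genes. At 10 CPM or more this held for 65.8% of members and 25.6% of genes. The interval lay within 1.25-fold for 38 members (92.7%), against 61.9% of all genes, and at 10 CPM or more for 97.4% of members and 84.4% of genes. The 3 members with wider intervals were Hnrnpc (fold 0.779 to 1.06), Hnrnph3 (0.767 to 1.05) and Snrpn (0.698 to 1.29).

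**Figure D2:**
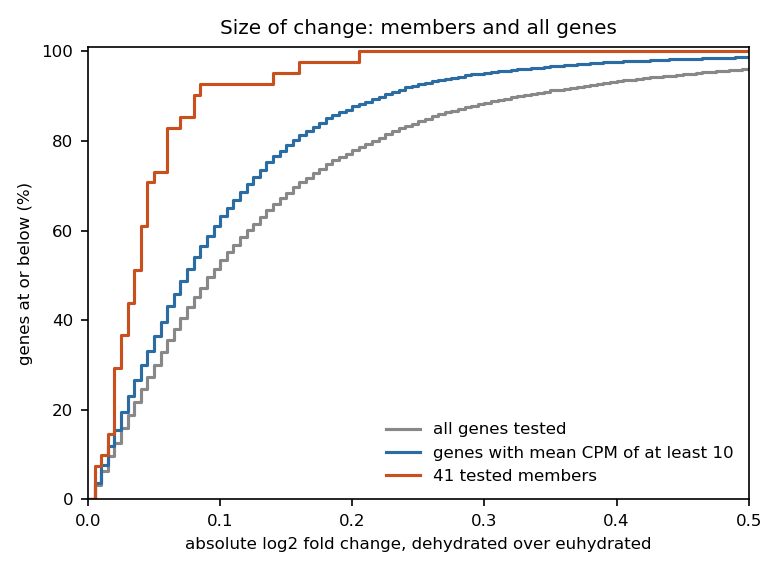
Cumulative share of genes (vertical axis, %) at or below each absolute log2 fold change (horizontal axis) for the 41 tested members, all 15311 genes tested and the genes with a mean of at least 10 CPM. The curve of the members rises first: their median is 0.03 against 0.09 for all genes.

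Srsf12 was the exception. It encodes an SR-like protein, also called SRrp35, that is known to oppose other SR proteins in the choice of splice sites. Its level was 26.2, 28.6, 27.2, 27.6 and 30.0 CPM in euhydrated libraries 1 to 5. In dehydrated libraries 1 to 5 it was 32.0, 29.0, 33.9, 32.9 and 33.1 CPM. Of the 5 dehydrated libraries 4 lay above every euhydrated one, and dehydrated 2 lay below euhydrated 5, so the groups overlapped by that library. Srsf12 (ENSRNOG00000051383) rose 1.15-fold (95% interval 1.07 to 1.24), from 27.9 ± 1.41 to 32.2 ± 1.92 CPM (SD, n = 5 per group). On the log2 scale this was 0.20 ± 0.05 (SE), and edgeR gave an adjusted p of 0.0168. The authors' deposited table gives a log2 fold change of 0.2 and an adjusted p of 0.00621.

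Each library left out in turn, the edgeR adjusted p of Srsf12 ran from 0.00527 (without dehydrated 2) to 0.0482 (without dehydrated 3). When the erythrocyte marker level entered the model, Srsf12 no longer passed: the estimate was 0.19 ± 0.07 (SE) on the log2 scale, with an edgeR adjusted p of 0.153, the highest over the alternatives. The erythrocyte list itself tended lower in dehydrated libraries: all 8 markers tested had a value below 0, with a median log2 fold change of -0.71. The groups overlapped in each of them, and 1 fell past the threshold and 0 rose. The called marker was Slc4a1, with only 5 to 60 counts per library, and it missed the threshold in limma-voom (adjusted p = 0.0534). The summed level of the list was 1119 to 2156 CPM under euhydration and 675 to 1528 CPM under dehydration, and none of its matched markers was at 0. Their part in the Srsf12 result was not tested further. Of 9 oligodendrocyte markers 2 fell and 0 rose (summed level 9960 to 14488 and 9533 to 12167 CPM). With their level as a covariate Srsf12 kept its call (log2 fold change 0.20, edgeR adjusted p = 0.0359). In the same fit 4 called genes of other splicing lists lost their call and other list genes gained one. The lists then had 8 genes higher and 10 lower, against 7 and 7 without the covariate.

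Srsf10, the close relative of Srsf12, is known as a splicing regulator whose activity depends on its phosphorylation. It stood at 30.1, 29.7, 26.5, 28.2 and 32.1 CPM in euhydrated libraries 1 to 5 and at 29.0, 28.3, 28.9, 29.1 and 28.7 CPM in dehydrated libraries 1 to 5. All 5 dehydrated values lay inside the range of the euhydrated ones. The fold was 0.982 with a 95% interval of 0.912 to 1.06 (edgeR adjusted p = 0.803). That interval does not reach the lower bound of the Srsf12 interval, 1.07, although the difference between both genes was not itself tested.

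**Figure D3:**
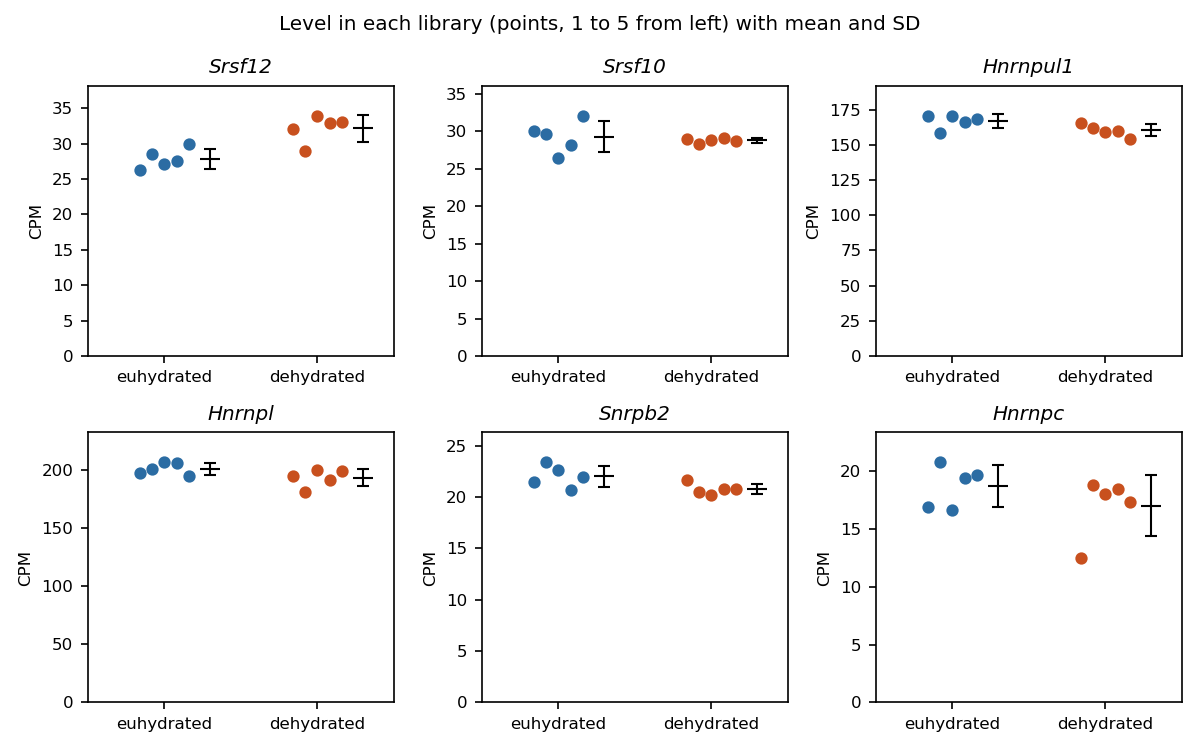
Level in CPM (vertical axis, from 0) of 6 members in each euhydrated (blue) and dehydrated (orange) library, with the mean and SD beside each group. In Srsf12 4 of 5 dehydrated libraries lie above all euhydrated ones; in Hnrnpc the lowest point is dehydrated 1, at 12.5 CPM.

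The other SR genes did not pass the test, and all 10 had an interval within 1.25-fold. Srsf5, an SR gene with a known early response to hormones and growth signals, had the most reads of the family, 321 ± 10.5 CPM in the euhydrated group and 318 ± 20.5 CPM in the other. Its dehydrated values spread from 287 CPM in dehydrated 2 to 335 CPM in dehydrated 1 and 5. Srsf1, the SR protein first known for the choice between alternative 5′ splice sites, had the smallest relative spread of the family in dehydrated samples, at 205 ± 5.62 and 208 ± 2.12 CPM. Its interval was 0.974 to 1.05. Srsf2, a nuclear speckle protein, stood at 147 ± 2.76 and 145 ± 4.05 CPM (0.948 to 1.03).

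Srsf3, the smallest SR protein, and Srsf7, which like Srsf3 also acts in mRNA export, had folds of 1.01 (0.968 to 1.06) and 0.985 (0.930 to 1.04). Srsf4 and Srsf6, a related pair with long arginine-serine domains, had folds of 1.01 (0.960 to 1.07) and 1.03 (0.979 to 1.08). Srsf11 had a fold of 1.02 (0.972 to 1.07). Srsf9 had the widest interval of the family, 0.930 to 1.14, at 12.9 and 13.2 CPM. Summed over all SR genes, the level was 1181 ± 7.50 CPM with water and 1190 ± 33.5 CPM without, a ratio of 1.01.

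None of the 18 hnRNP genes tested passed the threshold, and 7 had a value above 0 and 11 below 0. Hnrnpu, which also binds chromatin and organises the nucleus, had the most reads of the family. Its levels were 434, 412, 405, 445 and 419 CPM in euhydrated and 427, 407, 412, 434 and 414 CPM in dehydrated libraries. All 5 dehydrated values lay within the euhydrated range, and the fold was 0.990 (95% interval 0.945 to 1.04). Hnrnpa2b1, whose protein carries mRNA into dendrites of neurones and myelinating cells, stood at 392 ± 9.93 and 390.5 ± 16.8 CPM (SD, n = 5; fold 0.997, 0.951 to 1.05). Hnrnpk, a protein that binds C-rich RNA and DNA, had a fold of 1.00, and its interval, 0.961 to 1.05, reached less far from 1 than that of any other member.

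Hnrnpul1 and Hnrnpl came closest to the threshold after Srsf12, and both were lower. Hnrnpul1, a relative of Hnrnpu also known in DNA repair, stood at 171, 159, 171, 166 and 169 CPM in euhydrated and 166, 162, 159.5, 160.0 and 154 CPM in dehydrated libraries. Of the dehydrated libraries only number 5 was below the lowest euhydrated one. The log2 fold change was -0.06 ± 0.03 (SE; edgeR adjusted p = 0.242). Hnrnpl, which binds CA repeats, stood at 197, 201, 206, 205 and 195 CPM in euhydrated and 194, 181, 199, 191 and 199 CPM in dehydrated libraries, where 3 of 5 lay below all euhydrated values. Its log2 fold change was -0.06 ± 0.03 (SE; edgeR adjusted p = 0.261). Its paralogue Hnrnpll had a fold of 1.03 (0.957 to 1.10).

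Hnrnph3 and Hnrnpc had the largest values among members not past the threshold, with wide spreads. Hnrnph3, a short member of the hnRNP H and F group that binds G-rich RNA, stood at 5.88 ± 0.566 and 5.28 ± 0.678 CPM (SD, n = 5). Its log2 fold change was -0.16 ± 0.11 (SE; edgeR adjusted p = 0.383), and the highest dehydrated library, at 6.32 CPM, lay near the highest euhydrated one, at 6.40 CPM. Hnrnpc, which binds runs of U and keeps cryptic exons out, stood at 16.9, 20.8, 16.7, 19.4 and 19.7 CPM in euhydrated and 12.5, 18.8, 18.0, 18.5 and 17.4 CPM in dehydrated libraries. Its low mean in dehydrated samples rested mainly on dehydrated 1. The log2 fold change was -0.14 ± 0.10 (SE; edgeR adjusted p = 0.451).

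The remaining hnRNP genes had folds between 0.963 and 1.03. Hnrnph1, Hnrnph2 and Hnrnpf, the larger members of the G-binding group, had folds of 1.02, 1.02 and 1.00. Hnrnpa1 and Hnrnpa3, which often promote exon skipping, had folds of 0.982 and 0.971. Hnrnpd and Hnrnpdl, which bind AU-rich elements that mark RNA for decay, had folds of 1.02 and 0.979. Hnrnpm and Hnrnpul2 had folds of 0.980 and 1.03, and Hnrnpr, found in axons and nuclei of neurones, had a fold of 0.963. Summed over the family, the level was 3034 ± 58.8 CPM with water and 3015 ± 71.5 CPM without, a ratio of 0.994.

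None of the 12 snRNP genes tested passed the threshold either, with 3 values above and 9 below 0. Among the Sm ring proteins, Snrpd3 had the most reads, at 42.3 ± 1.19 and 41.2 ± 2.35 CPM (SD, n = 5; fold 0.975, 95% interval 0.913 to 1.04). Snrpe stood at 30.3 ± 1.60 and 29.8 ± 0.928 CPM (0.919 to 1.05). Snrpd1 had the highest value of the family, 1.06-fold (0.969 to 1.15), with 1 dehydrated library, number 4 at 33.1 CPM, above all euhydrated ones. The other ring genes Snrpb, Snrpd2, Snrpf and Snrpg had folds of 0.956, 0.999, 0.961 and 1.03, and Snrpg had few reads and an interval of 0.883 to 1.20.

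Of the proteins that mark the U1 particle, Snrpa and Snrpc had folds of 1.01 (0.912 to 1.12) and 0.973 (0.888 to 1.06). Snrpa1 and Snrpb2, which form a pair in the U2 particle, had folds of 0.989 and 0.943. Snrpb2 had the lowest value of the family, with 21.4, 23.4, 22.6, 20.7 and 22.0 CPM in euhydrated and 21.6, 20.5, 20.2, 20.7 and 20.8 CPM in dehydrated libraries. The groups overlapped, and 2 of 5 dehydrated libraries were below all euhydrated ones (log2 fold change -0.08 ± 0.05, SE; edgeR adjusted p = 0.292). The family summed to 258 ± 5.42 CPM with water and 254 ± 6.55 CPM without, a ratio of 0.986.

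Snrpn, an imprinted gene that encodes the neuronal counterpart of Snrpb, had only 20 to 40 counts per library and 1.18 ± 0.246 and 1.12 ± 0.228 CPM (SD, n = 5). Its interval, 0.698 to 1.29, leaves changes of moderate size undetectable at this depth. Snrpn shares its span with Snurf in RefSeq, since both are read from 1 transcript, so their reads may not be told apart, which was not tested. Snurf stood at 18.7 ± 1.69 and 17.2 ± 1.27 CPM (log2 fold change -0.12, edgeR adjusted p = 0.295).

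The other 3 members were not tested. Hnrnpab and Srsf8 were listed at 0 counts in all 10 libraries, which allows a level of up to 0.124 CPM in the smallest library (3 counts, counting error only). That is a limit on reads assigned to these entries. The entry described as hnRNP A/B, outside the rule, held only 0 to 1 counts per library. Whether reads of Hnrnpab went to some other entry or were left unassigned was not tested, so 0.124 CPM is not a limit on the level of the gene. Snrpd2l, a pseudogene in RefSeq, had 1 to 6 counts per library.

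**Figure D4:**
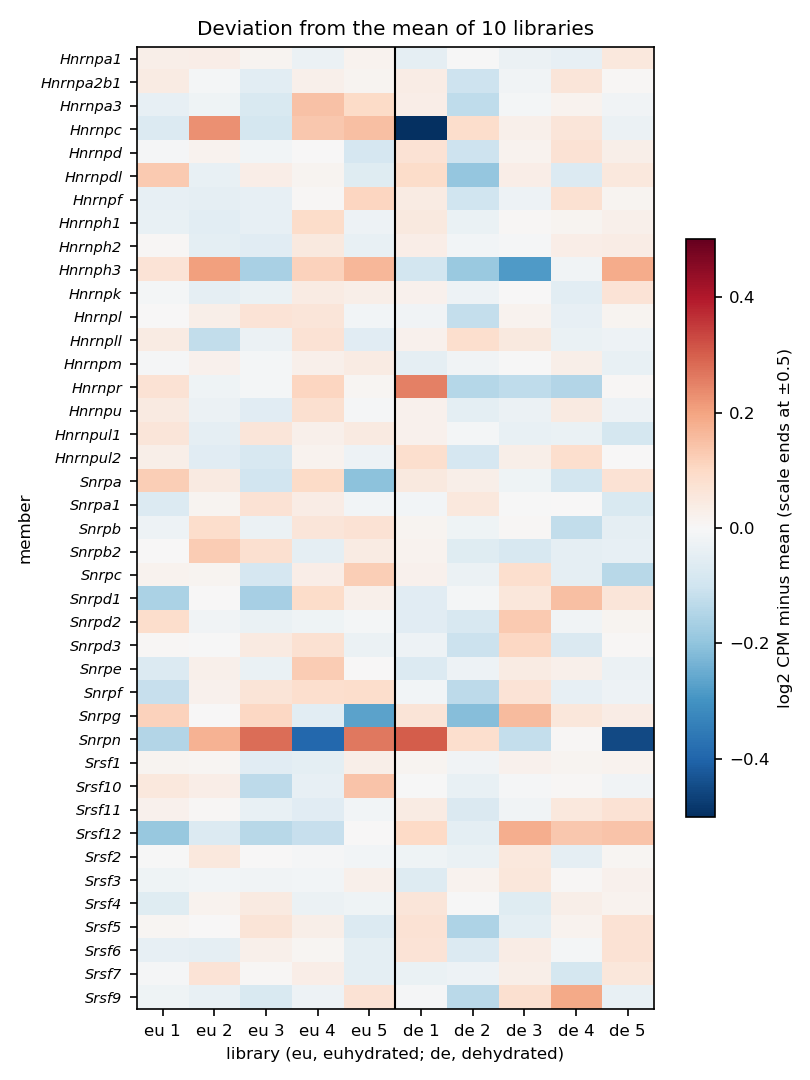
Log2 CPM of each tested member (rows) in each library (columns) minus its mean over the 10 libraries, from blue (lower) to red (higher), with the scale ending at 0.5 either way; a line separates the groups. Dehydrated 2 is mostly blue, with 6 of 41 members above their mean, and the strongest colours belong to Hnrnpc and Snrpn.

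Across libraries the members varied little, and 1 library was lower for many of them. The median biological coefficient of variation from the edgeR fit was 5.08% among the members, against 7.16% over all genes and 5.71% over genes with at least 10 CPM. Snrpn (15.4%), Hnrnpc (11.1%) and Hnrnph3 (10.3%) varied most. In dehydrated 2 only 6 of 41 members lay above their own mean and 14 had their lowest value there. In the other 9 libraries 15 to 28 members lay above it. The sum over all members was 4275 CPM in dehydrated 2, against 4413 to 4557 CPM in the other libraries. Without dehydrated 2 the ratio of the summed means went from 0.997 to 1.01, and the fit still put 1 member higher and 0 lower. Hnrnpr and Hnrnpc departed from their group in opposite directions in dehydrated 1, where Hnrnpr was highest at 33.3 CPM, against 25.2 to 28.0 CPM in the other dehydrated libraries.

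Other genes of the splicing pathway were described from 7 lists with 201 symbols, none of them members. Of 194 entries tested 7 rose, 7 fell and 180 did not pass, which is 7.22% called against 12.7% of all genes tested. The median level of these entries was 55.4 CPM, and of genes with at least 10 CPM 16.4% were called. Scaled to library totals, 4 were higher and 24 lower, and without euhydrated 1 or dehydrated 3 the fits put 4 lower.

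Among 68 entries of the core spliceosome 3 rose and 0 fell (4.41% called). The median log2 fold change of the list was -0.0026 against -0.0058 for all genes. Scaled to library totals the split turned to 0 higher and 3 lower, and Lsm4, Dhx15 and Bud31 missed the threshold (edgeR adjusted p = 0.0562, 0.0811 and 0.0894). Lsm4, part of the ring on the U6 RNA, stood at 50.9 ± 1.38 and 56.2 ± 1.78 CPM and so rose 1.10-fold (edgeR adjusted p = 0.0195). Dhx15, a helicase that takes used spliceosomes apart, stood at 82.3 ± 2.38 and 90.3 ± 3.60 CPM and also rose 1.10-fold (edgeR adjusted p = 0.0209). Both separated the groups without overlap. Bud31 rose 1.12-fold (edgeR adjusted p = 0.0464). With 1 library left out, Bud31 missed the threshold in 9 of 10 fits (0.0563 to 0.108), Dhx15 in 3 fits without euhydrated 2 or dehydrated 1 or 3 (0.0526 to 0.0558), and Lsm4 in 1, without euhydrated 1 (0.0502).

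Of the 11 minor spliceosome genes and the 18 genes of the exon junction complex and nonsense-mediated decay tested, 0 passed in either direction in edgeR, with 2 and 3 at an unadjusted p under 0.05. DESeq2 and limma-voom also called 0 in both lists, and scaling to library totals put 1 and 2 lower. Zrsr1 and Zrsr2, which recognise minor introns, had log2 fold changes of -0.09 and 0.00. Acin1, at the exon junction, and Smg1, the kinase of nonsense-mediated decay, each had a fold of 0.993. Of 17 genes of snRNP assembly 0 rose and 1 fell (0 and 3 when scaled to library totals). Tgs1, which methylates the cap of snRNAs, went from 30.4 ± 2.12 to 26.9 ± 1.48 CPM (SD, n = 5), 1.13-fold lower (edgeR adjusted p = 0.0460). It missed the threshold in 8 of the 10 leave-one-out fits (0.0541 to 0.113).

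Among 20 SR kinase, import and speckle genes 1 rose and 1 fell. Srpk2, a kinase that phosphorylates SR proteins, stood at 197, 197, 199, 193 and 199 CPM in euhydrated and 185, 179.7, 183, 181 and 187 CPM in dehydrated libraries. The groups did not overlap, and Srpk2 was 1.07-fold lower (edgeR adjusted p = 0.0148). Akap17a, which anchors protein kinase A at speckles, stood at 67.7 ± 2.20 and 77.5 ± 3.81 CPM, and rose 1.14-fold, also without overlap (edgeR adjusted p = 0.00412). Of 30 SR-related and hnRNP-like genes 0 rose and 2 fell (0 and 6 when scaled to library totals). Pcbp4, which binds C-rich RNA, was 1.09-fold lower (157 ± 4.49 to 144 ± 0.898 CPM, edgeR adjusted p = 0.00721). Celf2 was 1.18-fold lower (edgeR adjusted p = 0.0284) and missed the threshold in 5 leave-one-out fits (0.0625 to 0.0735).

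The list of neuronal and other splicing regulators had the most calls of the 7: of 30 genes 3 rose, 3 fell and 24 did not pass. That is 20% called, against 12.7% of all genes tested and 16.4% of genes with at least 10 CPM. The median level of the list was 66.7 CPM, so the share of 16.4% is the closer reference. Scaled to library totals, 3 were higher and 7 lower. Khdrbs2, which sets neurexin splicing in neurones, stood at 15.1, 15.4, 15.1, 15.3 and 15.6 CPM in euhydrated and 12.6, 11.3, 12.5, 12.2 and 12.8 CPM in dehydrated libraries. Every dehydrated value lay below every euhydrated one, and Khdrbs2 was 1.24-fold lower (edgeR adjusted p = 0.00159). Rbfox1, a neuronal regulator that binds UGCAUG, stood at 144, 122, 123, 139 and 123 CPM in euhydrated and 109.9, 99.2, 103, 116 and 105 CPM in dehydrated libraries. It was 1.22-fold lower without overlap (edgeR adjusted p = 0.00325).

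Rbm11, a brain-enriched regulator, stood at 14.5 ± 0.547 and 17.6 ± 1.23 CPM and rose 1.21-fold (edgeR adjusted p = 0.00693). Celf3 stood at 62.5 ± 1.26 and 70.2 ± 3.98 CPM and rose 1.12-fold (edgeR adjusted p = 0.0132), and both separated the groups without overlap. The other two, named after their values were seen, were Celf6, which rose 1.13-fold (edgeR adjusted p = 0.0158), and Mbnl2, which fell 1.08-fold (0.0404, and 0.0605 to 0.101 in the 7 leave-one-out fits where it missed the threshold). With the erythrocyte covariate Khdrbs2, Rbfox1 and Dhx15 kept their calls (edgeR adjusted p = 0.0224, 0.0217 and 0.0430), while the other 11 list genes past the threshold lost theirs (0.0786 to 0.282). The SE rose in all 11. The estimate grew in size in 4 of them (Lsm4, Srpk2, Tgs1 and Mbnl2) and shrank in 7, from 0.17 to 0.10 on the log2 scale in Celf3. With the oligodendrocyte covariate Bud31, Tgs1, Celf2 and Mbnl2 missed the threshold (edgeR adjusted p = 0.0628, 0.122, 0.0750 and 0.126), and the log2 fold change of Mbnl2 went from -0.11 to -0.08. Other list genes gained a call in that fit, among them 3 that were lower in the core spliceosome list.

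**Figure D5:**
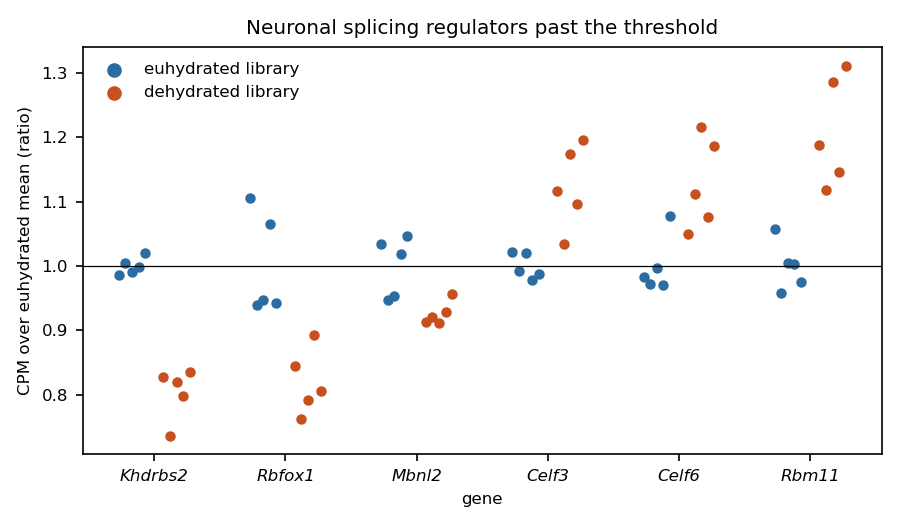
CPM of each library divided by the euhydrated mean of the gene (vertical axis, ratio) for the 6 genes past the threshold in the list of neuronal and other splicing regulators, with euhydrated libraries in blue and dehydrated ones in orange. Khdrbs2 and Rbfox1 lie lower and Rbm11 and Celf3 higher in dehydrated libraries without overlap, while the groups of Mbnl2 and Celf6 overlap.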

How the data were processed

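The deposited files hold raw whole-number counts by Ensembl gene and the authors' comparison of both groups, with its log2 fold changes, p-values and normalised counts (a signal), per the file headers. The tools named, per the submitters' processing notes, include STAR, featureCounts, DESeq2 1.28.1, FastQC and CASAVA. The library kit was stranded, per the labels. Genome build, annotation and the strand setting of the counting: not given in the sources used here. Reads of overlapping or near-identical genes are therefore uncertain. In 100% of values the deposited normalised signal was a count over its library's size factor (within 1% or 0.1). Libraries carry the numbers of the count columns. Euhydrated 3 to 5 were tied to the group only, because titles and descriptions number them differently.

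Genes were kept with filterByExpr, scaled by TMM and tested in R 4.3.3 with glmQLFTest of edgeR 4.0.16 after a robust glmQLFit, with Benjamini-Hochberg adjustment over 15311 genes and a threshold of 0.05. Intervals are 95% intervals from the same fit. The test was tested on simulated data. Gene lengths were not used, so levels are compared between libraries, not between genes. No library was a duplicate of another: pairs within a group had a chi-square of 4.86 to 12.1 per degree of freedom. Members and lists were chosen with earlier results of these data known. The named genes were members past the threshold, those with most reads, those nearest the threshold or with the largest changes, and up to 4 genes of each list. Alternatives were other scalings, filters and tools (DESeq2 1.42.0, limma 3.58.1), a replicate block, marker covariates, a stricter threshold and each library left out.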

Additional observations from a re-analysis of the deposited data

Results flagged for a closer look

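In 118 groups of 5 libraries (members tested and list genes named) 7 libraries stood apart from the rest of their group, by a gap over 0.71 of the group's range; chance flags about 1 in 20 groups. Hnrnpc was 12.5 CPM in dehydrated 1, with the next value at 17.4 CPM. The other 6 gaps were small in size. Snrpd2 was 30.1 CPM in euhydrated 1 against a next value of 28.2 CPM, and Hnrnph1 was 267 CPM in euhydrated 4 against 246 CPM. Srsf1 was 204 CPM in dehydrated 2 against 208 CPM, Srsf2 was 152 CPM in euhydrated 2 against 146 CPM, and Srsf3 was 114 CPM in euhydrated 5 against 111 CPM. Celf6, a list gene, was 116 CPM in euhydrated 5 against 107 CPM.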

How the results depend on the processing

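Of 59 genes followed over 20 alternatives, 1125 of 1180 values stayed on the same side of the threshold and 55 lost their call. None gained a call or changed sign while called, though 24 genes not past the threshold changed sign in some fit. The 59 were the 41 members tested and the list genes named, mostly named because they had passed. Gains among the other list genes are therefore not in this count. Such gains occurred: with the oligodendrocyte covariate 8 list genes were higher and 10 lower, against 7 and 7 without it. With the erythrocyte covariate 587 genes were higher and 203 lower, 0 members were higher, and of the list genes 1 was higher and 2 lower. Scaled to library totals 1173 genes were lower, and 4 list genes were higher and 24 lower; over all genes the median log2 fold change moved from -0.0058 to -0.033. At an adjusted p of 0.01, 658 genes were higher and 233 lower, with 0 members higher, and 2 list genes higher and 3 lower. Without 1 library at a time the fits called 955 to 1113 genes higher and 516 to 689 lower, 1 member higher in each, and 5 to 9 list genes higher and 4 to 8 lower (4 without euhydrated 1 or dehydrated 3). The replicate block by column number gave 11 list genes lower and Srsf12 at an edgeR adjusted p of 0.0255. Same-numbered libraries deviated together with correlations of -0.068 to 0.141, and 1 of 5 correlated best with its own number, so the numbers are not taken to pair the samples. The cause of these differences was not tested, except that the stricter threshold calls fewer genes by construction. Depth limits Snrpn most, at 20 to 40 counts per library.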

Other observations

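Outside the rule were 9 entries with provisional symbols (beginning with LOC or RGD) whose descriptions name an hnRNP or snRNP protein. Of the 6 tested, 0 passed the threshold in edgeR, DESeq2 or limma-voom, 1 was at an unadjusted edgeR p under 0.05, and all had groups that overlapped. The entry described as hnRNP K-like stood at 42.6 ± 2.19 and 42.7 ± 0.942 CPM (SD, n = 5), the one described as hnRNP A3-like at 29.3 ± 1.19 and 28.3 ± 1.34 CPM, and the one described as hnRNP A0 at 37.0 ± 1.91 and 34.8 ± 0.700 CPM. The entry described as similar to Snrpg stood at 8.28 ± 0.406 and 8.51 ± 0.621 CPM. The entry described as similar to a small nuclear ribonucleoparticle-associated protein stood at 2.47 and 1.86 CPM (log2 fold change -0.40, for which edgeR gave an adjusted p of 0.0934). The entry described as hnRNP R-like was at 0.801 CPM in dehydrated 1, where Hnrnpr was highest, and at 1.83 to 2.62 CPM in the other libraries. The entry described as hnRNP A/B had 0 to 1 counts per library. How reads were divided between such similar entries was not tested.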
